A study of Homo sapiens with 3 samples.

Results

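Windows of human chromosome 19 that were set for its KRAB zinc finger gene clusters held 221 of the 1413 m6A regions listed for this chromosome, and of 41836 regions in the whole list. Membership was decided by position alone, under a rule set with earlier results of these data known. A region was counted as a member if its midpoint lay in one of 7 windows of hg19, whether or not it lay in a zinc finger gene. They are called here window 1 (9.2 to 10.0 Mb), window 2 (11.6 to 12.8 Mb), window 3 (19.7 to 24.5 Mb), window 4 (36.6 to 38.5 Mb), window 5 (44.3 to 45.0 Mb), window 6 (52.3 to 54.0 Mb) and window 7 (56.0 to 59.1 Mb). The other 1192 regions of the chromosome lay in the 7 intervals before and between these windows, which are numbered in the same order.

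In m6A (N6-methyladenosine), adenosines of an RNA carry an added methyl group. Nuclear RNA of the established breast cancer cell line MDA-MB-231 was captured in 2 libraries with a rabbit antibody against m6A and in 1 library with rabbit IgG as the control. No treatment or change of genotype is given in the labels, and the labels do not say whether the m6A libraries came from separate cultures. The deposited outcome is 1 list of stranded regions without a value for any library, so enrichment over IgG, read depth and replicate error are unknown here. Because RNA abundance was not used either, a gene with little m6A and a gene with little RNA cannot be told apart.

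KRAB zinc finger proteins bind DNA through an array of C2H2 zinc fingers. Their KRAB domain recruits the co-repressor TRIM28, and many of them silence transposable elements. The genes arose by tandem duplication and stand side by side as near copies, typically with a few short exons and a long last exon that encodes the whole finger array. Long exons and the surroundings of stop codons are places where m6A is known to be frequent. In RefSeq for GRCh38.p14, 264 of the 1451 protein-coding genes on chromosome 19 (18.2%) carry a ZNF, ZFP, ZIM, ZSCAN or ZKSCAN symbol, and 212 of the 264 stand in 19 unbroken runs of at least 5 such genes. These genes were matched by symbol only, without a check for a KRAB domain, so the count is not one of KRAB genes. The longest run has 27 genes, from ZNF737 to ZNF681. Runs of 24 genes each reach from ZNF627 to ZNF791 and from ZNF565 to ZNF793, a run of 20 genes reaches from ZNF283 to ZNF180, and one of 16 from ZNF530 to ZNF256. Because this annotation is in another build than the list, it served for gene order only. No region was assigned to a gene, the zinc finger label of the windows could not be checked against the data, and no base sequence of a region was read.

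In 6 of the 7 windows m6A regions were fewer per Mb than in 6 of the 7 intervals, and the windows differed widely among themselves. Window 3, the longest, had 24 regions in 4.57 Mb and the lowest number per Mb, 5.25 (95% exact Poisson interval, 3.37 to 7.82). Window 4 had 16 regions, or 8.42 per Mb (4.81 to 13.7). Window 5 had 6 regions, or 8.57 per Mb (3.15 to 18.7). These windows and window 1, with 8 regions and 10 per Mb (4.32 to 19.7), cannot be ordered among themselves, since their intervals overlap.

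Window 2 was intermediate, with 25 regions and 20.8 per Mb (13.5 to 30.8). Window 7 held 83 regions, or 26.8 per Mb (21.3 to 33.2), and window 6 held 59, or 34.7 per Mb (26.4 to 44.8). The intervals of windows 6 and 7 overlapped each other and lay above those of windows 1, 3, 4 and 5. Poisson intervals cover counting error only and take regions as independent. Regions of 1 transcript are not, so the intervals are too narrow.

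Among the 7 intervals, the number per Mb ran from 8.80 in interval 4, beside the centromere, to 53.1 in interval 2, and the other 5 held between 30 and 38.6. Window 6 was therefore inside the range of those 5, window 7 was just under it, and windows 1 to 5 were all lower. The mean was 16.4 regions per Mb ± 11.2 (SD, n = 7 windows) in the windows and 32.4 ± 13.3 (SD, n = 7 intervals) outside them. A two-sided exact permutation test over the 14 segments gave p = 0.033. The difference did not pass this exact test after adjustment over the 9 comparisons made here (adjusted p = 0.10), although it did without window 6, the window with the most regions per Mb (difference -19.1 per Mb, adjusted p = 0.037). With any other single window left out it did not pass (exact permutation, adjusted p from 0.077 to 0.17). Pooled over segments, the windows had 15.8 regions per Mb and the rest of the chromosome 28.6. For scale, chromosome 19 as a whole had 23.9 regions per Mb between its first and last region, the second highest of 24 chromosomes, and the other 23 had a median of 13.3. These chromosome values count the whole span, centromere included. The values 15.8 and 28.6 leave out the longest stretch without a region, taken as the centromere.

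**Figure D1:**
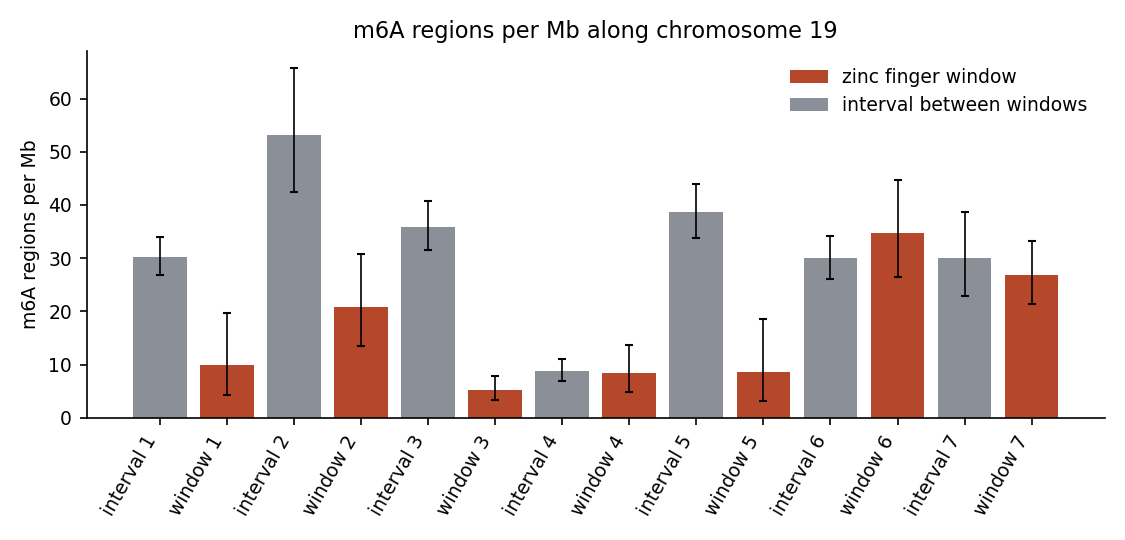
Number of m6A regions per Mb (vertical axis) in the 7 zinc finger windows and the 7 intervals of chromosome 19, in order along the chromosome; whiskers are 95% exact Poisson intervals. Windows 1, 3, 4 and 5 lie at 10 per Mb or below, as does interval 4, while window 6 reaches 34.7.

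Of 142 bins of 100 kb in the windows, 84 (59.2%) had no region, against 213 of 449 (47.4%) in the rest of the chromosome, the centromere included. The difference between these shares was not tested. Window 3 was the emptiest, with 39 of 48 bins empty, followed by window 4 with 13 of 19 and window 7 with 17 of 31. In window 6 only 4 of 17 bins were empty. Within the windows, the longest stretch without a region on either strand was 1.46 Mb long and lay in window 3, from 21281717 to 22738077. Another of 1.02 Mb lay in window 7, from 56667965 to 57689257. Interval 5 had one of similar length, 1.04 Mb, and interval 4, beside the centromere, had one of 3.23 Mb.

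The fullest bin of window 6, from 53.1 to 53.2 Mb, held 29 regions, or 49.2% of that window. The fullest bin of window 7, its last, from 59.0 to 59.1 Mb, held 20 (24.1%). In window 2 the last bin, from 12.7 to 12.8 Mb, held 8 of 25 regions, and the adjoining 100 kb outside the window held 18. Over the 13 limits that face the rest of the chromosome, 28 regions lay in the 100 kb inside and 54 in the 100 kb outside. The limits thus run close to some denser places, and what they leave out was not part of any window.

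The regions were joined into chains where neighbours on the same strand lay at most 10 kb apart. The 221 regions formed 101 chains, and 59 regions (26.7%) were alone, against 252 of 1192 (21.1%) in the rest of the chromosome. Chains of 5 or more numbered 11 and held 85 regions (38.5%), against 44.4% of regions in such chains outside the windows. Window 7 had 7 of these 11 chains, window 6 had 3 and window 2 had 1. The chain in window 2 goes on with 8 more regions beyond the window.

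Chains per Mb averaged 8.27 ± 3.34 (SD, n = 7) in the windows and 12.1 ± 3.78 outside, which the exact permutation test did not separate (p = 0.071, adjusted p = 0.11). The share of regions alone averaged 43.5% ± 29.5 in the windows and 21.7% ± 8.47 outside (exact permutation p = 0.058, adjusted p = 0.10). It ran from 12.0% in window 7 to 6 of 6 regions in window 5. Without window 7 this difference passed the exact permutation test, at 27.1 percentage points (adjusted p = 0.039), as leaving out the window with the lowest share enlarges it. Without window 5 it was 12.4 percentage points (exact permutation, adjusted p = 0.16), and no leave-out of another window passed (adjusted p from 0.064 to 0.17). Chains per Mb and the share of regions alone both depend on the number of regions per Mb. They are not results separate from that comparison.

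Window 6 held the largest chain, with 14 regions on the minus strand from 53132587 to 53157615. These covered 881 nt, or 3.52% of 25.03 kb, and 4 of them exceeded 100 nt. Read from its upstream end, the chain starts with 3 regions of 24, 26 and 23 nt. Its widest region, of 168 nt, lay from 53150084 to 53150251, and 3 further wide ones lay from 53150861 to 53150970 (110 nt), from 53151390 to 53151500 (111 nt) and from 53140391 to 53140512 (122 nt). So 8 of its 13 gaps were under 1 kb and the longest was 9571 nt. A second minus-strand chain of 10 regions followed from 53168912 to 53193033, covering 2.15% of 24.1 kb. Neither chain had a plus-strand region within its limits. Together they made up 24 of the 59 regions of the window. Gaps of 11055 and 11296 nt set the chain of 14 apart from the minus-strand chains on either side. A joining distance slightly above 10 kb would thus make them 1 chain. The third chain of window 6 was on the plus strand, from 52694994 to 52716043, with 6 regions.

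The tightest chain was on the plus strand at the end of window 7, from 59057260 to 59061652. It had 11 regions in 4.39 kb, which covered 17.4% of it, and all 10 gaps were under 1 kb, with a median of 296.5 nt. In order along the strand the regions were 52, 44, 212, 44, 32, 32, 137, 42, 32, 25 and 113 nt wide. A minus-strand chain of 8 regions followed from 59063467 to 59080531, over 17.1 kb, so that the deposited strands of both chains point towards each other. These were the last chains of the chromosome in the list. In RefSeq order the protein-coding genes of chromosome 19 end with ZNF446, SLC27A5, ZBTB45, TRIM28, CHMP2A, UBE2M and MZF1, of which TRIM28 encodes the co-repressor of the KRAB proteins. The chains were not matched to these genes.

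The other large chains of window 7 held 8 regions on the plus strand from 56166447 to 56185806, 7 from 58352453 to 58370857 and 6 from 57794331 to 57814200, and 5 each on the minus strand from 58915643 to 58919820 and from 58415836 to 58423896. Their regions covered between 1.21% and 5.46% of the chain.

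**Figure D2:**
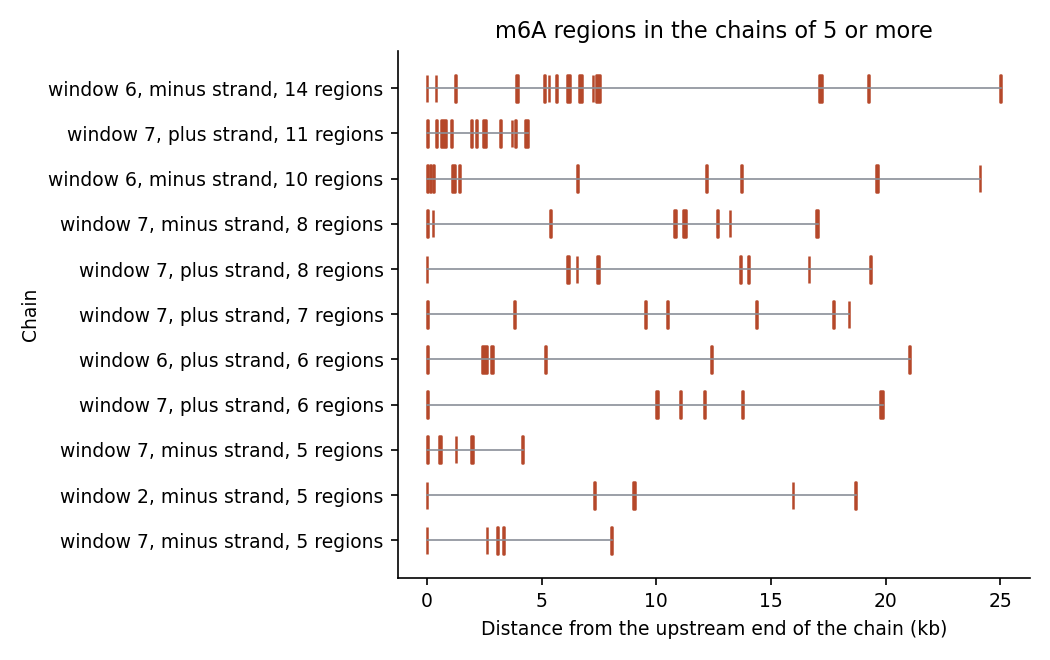
The 11 chains of 5 or more m6A regions in the windows, drawn from the upstream end of their deposited strand (horizontal axis, kb); each bar is a region, with narrow regions drawn at a fixed minimum line width. The 11 regions of the plus-strand chain in window 7 lie within 4.39 kb, whereas the 14 regions at the top spread over 25.03 kb.

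Windows 1, 3, 4 and 5 had no chain of 5 or more. In window 1, 7 of 8 regions were on the minus strand, and 3 of them lay together from 9675859 to 9677479 with widths of 48, 32 and 30 nt. A single region of 65 nt, from 9783720 to 9783784, was the widest there. In window 2, outside the chain at its upper limit (12781002 to 12799709, minus strand), a chain of 3 regions lay on the plus strand from 11926113 to 11932746. In window 4, 8 of 16 regions lay in its first part on the plus strand, in chains from 36636727 to 36641036, from 36706285 to 36708505 and from 36721406 to 36728397. Window 5 held no chain of more than 1 region. Its 6 regions measured 31, 21, 36, 61, 32 and 42 nt, and the widest 2 on the plus strand lay from 44612283 to 44612343 and from 44961451 to 44961492.

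The regions of window 3 lay in small groups and singly. A pair of minus-strand regions of 75 and 76 nt lay near its start, from 19765965 to 19767922. A loose series of 7 minus-strand regions followed between 23405044 and 23572322, none of them facing a plus-strand region there, with widths from 23 to 50 nt. Further along, 4 plus-strand regions from 24183664 to 24185860 had 1 minus-strand region within their limits. That place held the 1 pair in all windows whose members overlapped on opposite strands, a plus-strand region of 40 nt lying wholly within a minus-strand region of 114 nt (24184490 to 24184603). In the rest of chromosome 19 there were 5 such pairs. The last region of the window ended at 24267238, and the next on the chromosome began 3.46 Mb further on.

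Neighbouring regions were mostly on the same strand in the windows and outside them alike. Of 123 neighbouring pairs with gaps above 100 nt and up to 10 kb, 117 (95.1%) shared a strand, against 703 of 744 (94.5%) in the rest of the chromosome. The shortest same-strand gap was 101 nt in the windows and 102 nt outside. The lower limit of 100 nt could therefore leave out only pairs on opposite strands, which raises these shares. The share was 36 of 36 in window 6, 56 of 59 in window 7 and 6 of 8 in window 3, and window 5 had no such pair. Over segments the means were 93.6% ± 9.74 (SD, n = 6 windows with a pair) and 92.8% ± 6.29 (SD, n = 7 intervals), which did not differ detectably (exact permutation p = 0.82, adjusted p = 0.92).

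The strand itself changed from window to window. The windows together had 105 minus-strand and 116 plus-strand regions, a minus share of 47.5% (95% Wilson interval, 41.0 to 54.1%), and the rest of the chromosome 50.7% (47.8 to 53.5%). These Wilson intervals, and those of single windows below, take regions as independent. Neighbouring regions mostly share a strand, so the intervals are too narrow. Single windows ran from 12.5% minus in window 4 (2 of 16 regions; 3.50 to 36.0%) to 87.5% in window 1 (7 of 8; 52.9 to 97.8%). Window 6 leaned to the minus strand with 40 of 59 regions (67.8%; 55.1 to 78.3%), and window 7 to the plus strand with 54 of 83, a minus share of 34.9% (25.6 to 45.7%). Windows 2, with 13 minus and 12 plus, and 3, with 12 of each, were even.

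Part of this spread belonged to single chains. Counted by chains, window 6 was nearly even, with 12 on the minus and 11 on the plus strand, and its 2 largest chains were both minus. Counts of chains depend on the joining distance of 10 kb. Window 7 had 10 minus and 17 plus chains, and window 4 had 2 and 8. The mean minus share was 48.3% ± 24.6 (SD, n = 7) over windows and 48.5% ± 13.6 over intervals, a difference that the exact permutation test did not separate from 0 (p = 0.99, adjusted p = 0.99).

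**Figure D3:**
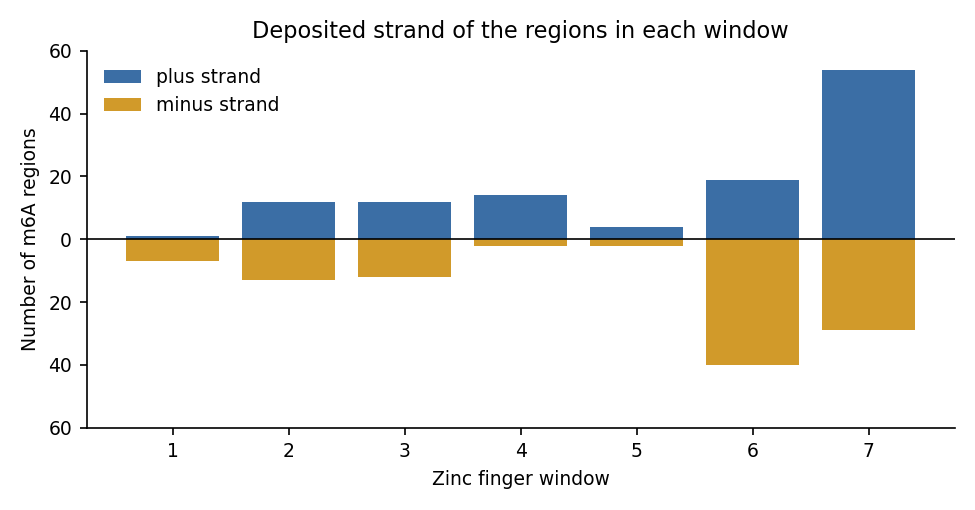
Number of m6A regions on the plus strand (upward bars) and minus strand (downward bars) in each of the 7 windows. Window 4 has 14 plus and 2 minus regions, window 6 has 19 and 40, and window 7 has 54 and 29.

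Gaps between successive regions of one strand had a pooled median of 6.11 kb in the windows (207 gaps) and 4.74 kb outside (1178 gaps). Short gaps were similarly frequent, with 25.6% of gaps up to 1 kb in the windows and 23.9% outside. Gaps above 100 kb made up 18.8% and 15.2%. Window medians ran from 3.76 kb in window 7 and 5.10 kb in window 6 to 53.1 kb in window 1 and 236 kb in window 5, which had only 4 gaps. The mean of the medians was 48.97 kb ± 84.1 (SD, n = 7 windows) against 5.47 kb ± 3.01 (SD, n = 7 intervals), with p = 0.032 in the exact permutation test and adjusted p = 0.10. Each segment counts equally in these means, so window 5 with 4 gaps weighs as much as interval 1 with 276. Gaps are also longer where there are fewer regions per Mb, so this comparison is not separate from that of regions per Mb. The difference in means passed the exact test without window 6 (50.8 kb, adjusted p = 0.037) and without window 7 (51.0 kb, adjusted p = 0.039). Both have low medians, so leaving either out enlarges it. Without window 5 the difference was 12.4 kb (exact permutation, adjusted p = 0.16). It did not pass the exact test with window 1, 2, 3 or 4 left out (adjusted p from 0.060 to 0.17).

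**Figure D4:**
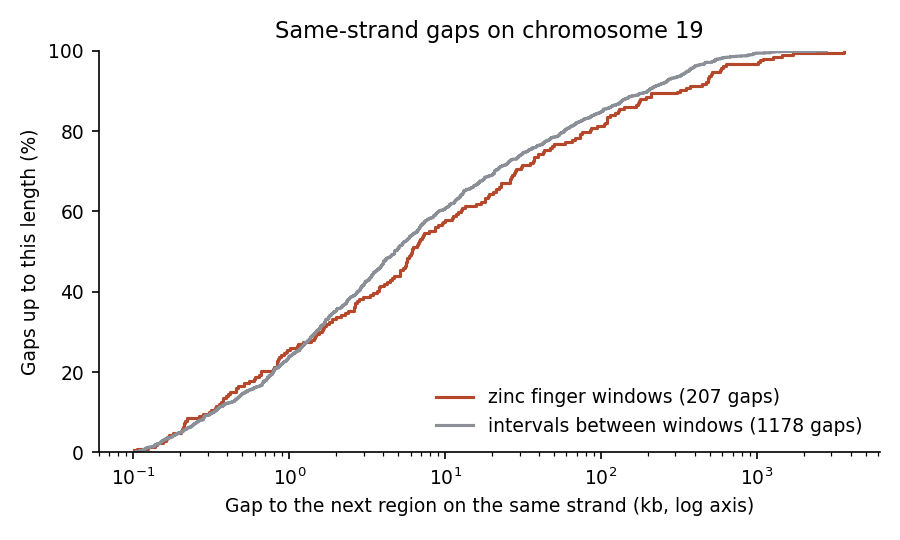
Cumulative share of same-strand gaps (vertical axis, percent) up to each length (horizontal axis, kb, log scale), for the 207 gaps inside windows and the 1178 gaps inside intervals. The curves nearly coincide at 1 kb, at 25.6% and 23.9%, and the windows have the larger share above 100 kb, 18.8% against 15.2%.

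The regions in the windows were about as wide as elsewhere or slightly narrower. Their widths ran from 19 to 300 nt, with a median of 42 nt and quartiles of 30 and 49 nt, against 45 nt and quartiles of 31.75 and 56.25 nt in the rest of the chromosome. The median was 46 nt in window 2, 45 nt in window 6, 42 nt in window 3, 40 nt in window 7, 39.5 nt in window 4, 38 nt in window 1 and 34 nt in window 5. Over segments the mean of the medians was 40.6 nt ± 4.13 (SD, n = 7) in the windows and 44.5 nt ± 2.12 in the intervals. The exact permutation test gave p = 0.049, which did not pass after adjustment (adjusted p = 0.10).

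Over the windows, wide regions were most frequent in window 6. Of the 21 regions over 100 nt, 11 lay there (18.6% of that window; 95% Wilson interval, 10.7 to 30.4%) and 5 in window 7 (6.02%; 2.60 to 13.3%). Windows 1 and 5 had none, among 8 and 6 regions. These Wilson intervals also take regions as independent, so they are too narrow where wide regions share a chain. The pooled share was 9.50% in the windows and 9.82% outside, and the segment means, 7.05% ± 6.76 and 10.1% ± 2.38, did not differ detectably (exact permutation p = 0.29, adjusted p = 0.37). The 5 widest regions lay from 53935911 to 53936210 (plus strand, 300 nt), from 52598086 to 52598310 (minus strand, 225 nt), from 52697420 to 52697638 (plus strand, 219 nt), from 59057888 to 59058099 (plus strand, 212 nt) and from 53150084 to 53150251 (minus strand, 168 nt). The first 3 and the last of them belong to window 6.

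As elsewhere on the chromosome, wide regions were more frequent in chains. They made up 5.08% of the 59 regions alone, 7.79% of the 77 in chains of 2 to 4 and 14.1% of the 85 in chains of 5 or more, and outside the windows 4.76%, 9.25% and 12.7%. These shares describe the list and were not tested. The median width was 39 nt on the minus strand (105 regions) and 43 nt on the plus strand (116 regions) of the windows, whereas in the rest of the chromosome it was 46 and 44 nt.

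A width of exactly 49 nt, the most frequent on the chromosome, was held by 10 of the 221 regions (4.52%) and by 100 of the 1192 others (8.39%). Of the 10, 7 were in window 6 (11.9% of that window), 2 in window 7 and 1 in window 3, and the other 4 windows had none. On the minus strand of the windows it was held by 7 regions (6.67%) and on the plus strand by 3 (2.59%), with 10.8% and 5.95% outside. The segment means were 2.63% ± 4.38 (SD, n = 7 windows) and 7.22% ± 3.16 (SD, n = 7 intervals), with p = 0.055 in the exact permutation test and adjusted p = 0.10. Without window 6, which held most of these regions, the difference was enlarged to -6.13 percentage points and passed the exact permutation test (adjusted p = 0.021). With any other single window left out it did not pass (exact permutation, adjusted p from 0.13 to 0.17).

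**Figure D5:**
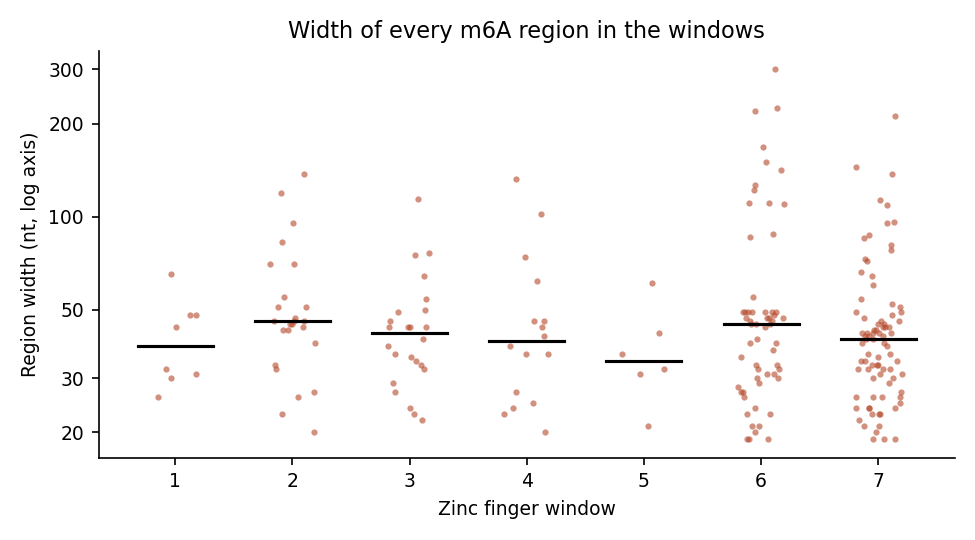
Width of each of the 221 m6A regions (vertical axis, nt, log scale) by window; the black line is the window's median and points are spread sideways for visibility. Window 6 holds 11 of the 21 regions over 100 nt, and the medians lie between 34 and 46 nt.

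Reads from near-identical gene copies can match more than 1 place, and no source used here says how such reads were handled. The numbers in windows of duplicated genes are uncertain for this reason.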

How the data were processed

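Captures with an m6A antibody (2 libraries) and IgG (1 library) were made from nuclear RNA, per the labels. The submitters' processing notes name Bowtie2 and hg19. The peak caller, its thresholds, and whether IgG was subtracted or m6A libraries were pooled, are details not given in the sources used here. Each record of the deposited list has a start, end, strand and score. The score deposited by the authors is 1 for every region and ranked nothing.

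Windows were read from the position rule, and positions are given in hg19, counted from 1. Segment length left out the longest stretch without a region (24267239 to 27732013), taken as the centromere. This stretch was set by the listed regions and not by known gaps in the sequence. Most of it lay in interval 4, which kept 8.87 Mb, and the rest in window 3, which kept 4.57 Mb. Segment values were compared by two-sided exact permutation of 7 windows and 7 intervals (3432 arrangements, smallest possible p 5.8e-04; 1716 arrangements for 6 windows), with Benjamini-Hochberg adjustment over 9 comparisons and a threshold of 0.05. The tests treat segments as units and every p describes this list, not a repeat of the experiment. Segments count equally although they differ in size, with 6 to 83 regions in the windows and 60 to 278 in the intervals. Medians and shares of windows therefore rest on fewer regions and vary more, and p can depend on this. The members, windows and measures were chosen with earlier results of these data known.

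Named items were the 2 largest chains of each window and the 5 widest regions; the other chains of 5 or more and the loose series in window 3 were added after their values were seen. Motif search, sequences and gene assignment planned for an hg19 genome were not run. Functions were tested on simulated regions. Tests used scipy 1.17.1 and numpy 2.4.6, tables pandas 2.3.3 and plots matplotlib 3.10.9, under Python 3.11.15.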

Additional observations from a re-analysis of the deposited data

How the results depend on the processing

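With segments as units, none of the 9 comparisons passed after adjustment, and 4 of them passed in single alternatives. The 9 are not independent of each other, as gaps, chains per Mb and regions alone depend on the number of regions per Mb. Adjustment covered the 9 comparisons within a setting and not the number of alternatives tried. The number of regions per Mb stayed lower in the windows in 15 of 15 alternatives (differences from -19.1 to -12.8 per Mb). Exact permutation gave adjusted p from 0.037 to 0.20, and the pooled alternative (-12.8) was not tested. The alternatives reuse 1 list and are not independent checks. Counting any overlap with a window changed nothing (-16.02), and merging overlapping regions (-15.96) or using full segment length (-15.72) changed little. One alternative, leaving out the fullest 100 kb of every segment, was chosen after seeing the data (-16.9 per Mb, exact permutation p = 0.0076, adjusted p = 0.068). With single windows left out, the differences ran from -19.1 to -14.2 regions per Mb, from -6.13 to -4.15 percentage points for regions of 49 nt, from 12.4 to 51.0 kb for the same-strand gap and from 12.4 to 27.1 percentage points for regions alone. Pooled over regions, the gap difference was 1.37 kb. The minus-strand share changed sign with limits moved out by 100 kb (8.03 percentage points) and ran from -6.72 to 5.78 with single windows left out. The share of same-strand neighbours changed sign at a neighbour distance of 1 kb (-1.33 percentage points) and 50 kb (-2.84), and ran from -0.45 to 4.55 with single windows left out. The cause was not tested. No paired analysis was possible because single libraries have no values here. For the same reason no library could be left out, and a stricter score was not run since all scores are equal. With limits moved in (-16.8 regions per Mb), the last 100 kb of window 7 (59.0 to 59.1 Mb) entered no segment. This stretch is the fullest bin of that window, with 20 of its 83 regions. Without read counts, the depth behind each region is unknown.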
